A study of Rattus norvegicus with 56 samples.

Results

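Neurod1, Neurod2, Neurod6, Tbr1, Slc17a7, Sv2b and Nrn1 are genes of cortical projection neurons, and their signals were followed in RNA of the rat dorsal striatum. All probe sets whose symbol in the array annotation equals 1 of these 7 names were taken, which gave 10 probe sets of the 31099 on the array, for 7 of 14218 genes that a probe set names alone. A probe set is a group of short array probes read out as 1 signal. The gene names, and not the signals, chose the members, but the names were put forward with earlier results of these arrays known. Tests were run on probe sets whose mean over the arrays exceeded 4.99 on the log2 scale (the 40th percentile), which 7 of the 10 did. They stand for 6 genes. The probe set of Tbr1 (mean 1.45), 1 of 3 of Sv2b (3.47) and 1 of 2 of Slc17a7 (4.83) lay below that level and are described without a test.

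The study asked how a nigral lesion and L-dopa relate to reward by the D2/D3 dopamine receptor agonist pramipexole. Total RNA of the dorsal striatum of 56 male Crl:OFA (Sprague Dawley) rats was read on 1 array per rat. Groups are written below as model, chronic treatment and conditioning, with ppx for pramipexole, and each held 7 rats. They were lesion L-dopa ppx, lesion L-dopa saline, lesion saline ppx, lesion saline saline, sham L-dopa ppx, sham L-dopa saline, sham saline ppx and sham saline saline. Lesioned rats carried AAV vectors driving alpha-synuclein, which cost them nigral neurons on both sides, while the sham rats were given AAV coding for GFP. All 56 rats thus received surgery and a virus, and no untouched rats were in the comparison. L-dopa methyl ester was dosed at 50 mg/kg, with benserazide to keep it from being converted outside the brain, for 3 weeks, starting 5 weeks after surgery. The other rats received saline. Pramipexole was dosed at 2 mg/kg in a place conditioning test, and the dissection followed the final dose by 24 or 48 hours.

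Arrays numbered 1 to 37 and 38 to 56 were handled as 2 separate sets, a division the labels do not explain. All 28 lesioned rats and the sham L-dopa ppx group lie in arrays 1 to 37, both sham groups on chronic saline lie in arrays 38 to 56, and the sham L-dopa saline group is divided into 2 and 5. Each comparison of 2 groups below was therefore made inside 1 of these array sets. In the other comparisons of lesioned with sham groups, the lesion and the array set coincide in whole or in part, and these comparisons were not made. Outside the sham L-dopa ppx group, only sham rats 36 and 37 share arrays 1 to 37 with the lesioned rats. Array medians lay between 5.62 and 5.81 on the log2 scale. The defining striatal markers Drd1 (mean log2 signal 10.79), Adora2a (10.03) and Penk (12.2) were bright, in keeping with the labelled tissue.

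Cortical projection neurons are glutamatergic cells that send axons out of the cortex, many of them into the striatum, while their cell bodies and most of their mRNA stay in the cortex. The dorsal striatum itself is built mainly of GABAergic spiny neurons, which carry Drd1 in the direct pathway and Adora2a and Penk in the indirect pathway. Neurod1, Neurod2 and Neurod6 encode basic helix-loop-helix transcription factors of excitatory neurons that bind E-box sequences, and Tbr1 encodes a T-box factor of deep-layer and early-born cortical neurons. Slc17a7 encodes VGLUT1, the transporter that loads glutamate into the vesicles of cortical terminals. Sv2b encodes a synaptic vesicle glycoprotein, and Nrn1 encodes neuritin, a membrane-anchored protein linked to neurite growth and plasticity. In bulk tissue, fewer cells of a type and less RNA per cell cannot be told apart.

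The promoters of 3 members follow. Among the promoters at hand these 3 held the most E-boxes, the sequences that Neurod factors bind. Their signals varied together, as did that of Neurod1, whose promoter held 1. Any part of E-boxes in this was not tested. The sequences come from RefSeq (build GRCr8), run 5′ to 3′ and cover 250 bases before to 50 bases after the gene start, with each CANNTG in capitals. Neurod2 lies at chr10:83824228-83824527 on the minus strand, Neurod6 at chr4:86180106-86180405 on the minus strand and Slc17a7 at chr1:104785955-104786254 on the plus strand.
Neurod2: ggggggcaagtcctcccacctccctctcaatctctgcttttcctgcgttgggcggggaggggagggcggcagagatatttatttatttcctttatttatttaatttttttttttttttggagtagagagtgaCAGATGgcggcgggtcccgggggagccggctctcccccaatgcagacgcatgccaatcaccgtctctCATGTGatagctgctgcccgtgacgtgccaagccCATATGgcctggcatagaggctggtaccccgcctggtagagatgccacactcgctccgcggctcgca
Neurod6: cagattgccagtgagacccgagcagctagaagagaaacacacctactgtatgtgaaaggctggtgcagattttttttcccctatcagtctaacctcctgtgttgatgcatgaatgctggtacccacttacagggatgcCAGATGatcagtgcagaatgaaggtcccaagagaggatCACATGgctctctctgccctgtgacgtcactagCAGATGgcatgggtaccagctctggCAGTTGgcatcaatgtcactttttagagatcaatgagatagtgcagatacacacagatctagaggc
Slc17a7: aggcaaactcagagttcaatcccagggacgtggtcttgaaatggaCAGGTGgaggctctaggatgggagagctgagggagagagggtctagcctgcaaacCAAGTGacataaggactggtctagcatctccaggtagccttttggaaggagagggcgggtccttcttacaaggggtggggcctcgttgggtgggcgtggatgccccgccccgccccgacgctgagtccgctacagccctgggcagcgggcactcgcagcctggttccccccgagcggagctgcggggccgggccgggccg
The Neurod6 promoter held 4 E-boxes, Neurod2 held 3 and Slc17a7 held 2, and 1 each was found in Neurod1, Sv2b and Tbr1. The form CAGATG, searched on both strands and itself a case of CANNTG, occurred at -112 and -41 in Neurod6 and at -118 in Neurod2, and in none of the other 4 promoters at hand. CANNTG was present in 72.1% of 33469 promoters of the same length and CAGATG in 16.6%. The T-box motif GGTGTGA, on either strand, was in 3.83% of them and in none of the 6. Such a match is a description of letters and says nothing of binding.

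Signals of the cortical genes lay far apart between rats that had been treated alike. Slc17a7 ranged from 5.18 in rat 49 to 7.87 in rat 22 on the log2 scale, a 6.45-fold span of the unlogged signal. Nrn1 ranged from 6.99 in rat 28 to 9.88 in rat 22, a 7.42-fold span. Among the transcription factors, Neurod1 lay between 3.29 in rat 28, below the level needed for testing, and 7.14 in rat 22, and no fold is given for it. Neurod6 spanned 6.33-fold (5.84 in rat 49 to 8.51 in rat 22) and Neurod2 spanned 4.25-fold (5.20 in rat 28 to 7.29 in rat 9). The brighter spiny neuron genes spanned 1.95-fold for Drd1, 2.09-fold for Adora2a and 1.53-fold for Penk.

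With group and array set taken out, the SD between rats was 0.854 for Neurod1, 0.655 for Nrn1, 0.57 for Slc17a7, 0.559 for Neurod6 and 0.473 for Neurod2. These values lay at the 98.5th to 99.9th percentile of the 18625 probe sets tested, whose median SD was 0.177 (47 residual degrees of freedom). Dim probes vary more, so each was also set among probe sets within 0.5 of its own mean signal, where the percentiles were 98.3 to 99.9. Drd1 had an SD of 0.211 (64.7th percentile of all), Adora2a 0.231 (72.1st) and Penk 0.132 (27.3rd). Among probe sets of their own level Penk stood at the 89.4th percentile, Drd1 at the 94.1st and Adora2a higher still, so they too varied more than most genes of like signal. No test was made of these spreads.

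Sv2b behaved differently on its probe sets. The brightest, 1369628_at with a mean of 12.18, had an SD between rats of 0.262 (81.4th percentile) and a 2.14-fold span. The second, 1369627_at with a mean of 8.53, had an SD of 0.280 (85.5th percentile) and a 2.75-fold span. Against probe sets of their own signal level the percentiles were 99.3 and 96.7. Tbr1 ran from -0.39 to 3.51 at the bottom of the scale, with group means of 0.897 in sham saline saline to 2.11 in lesion saline ppx, and the third Sv2b probe set, 1375142_at, ran from 0.283 to 4.35. The second Slc17a7 probe set, 1368986_at, ran from 2.92 in rat 49 to 5.68 in rat 8. These 3 lay below the filter.

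**Figure D1:**
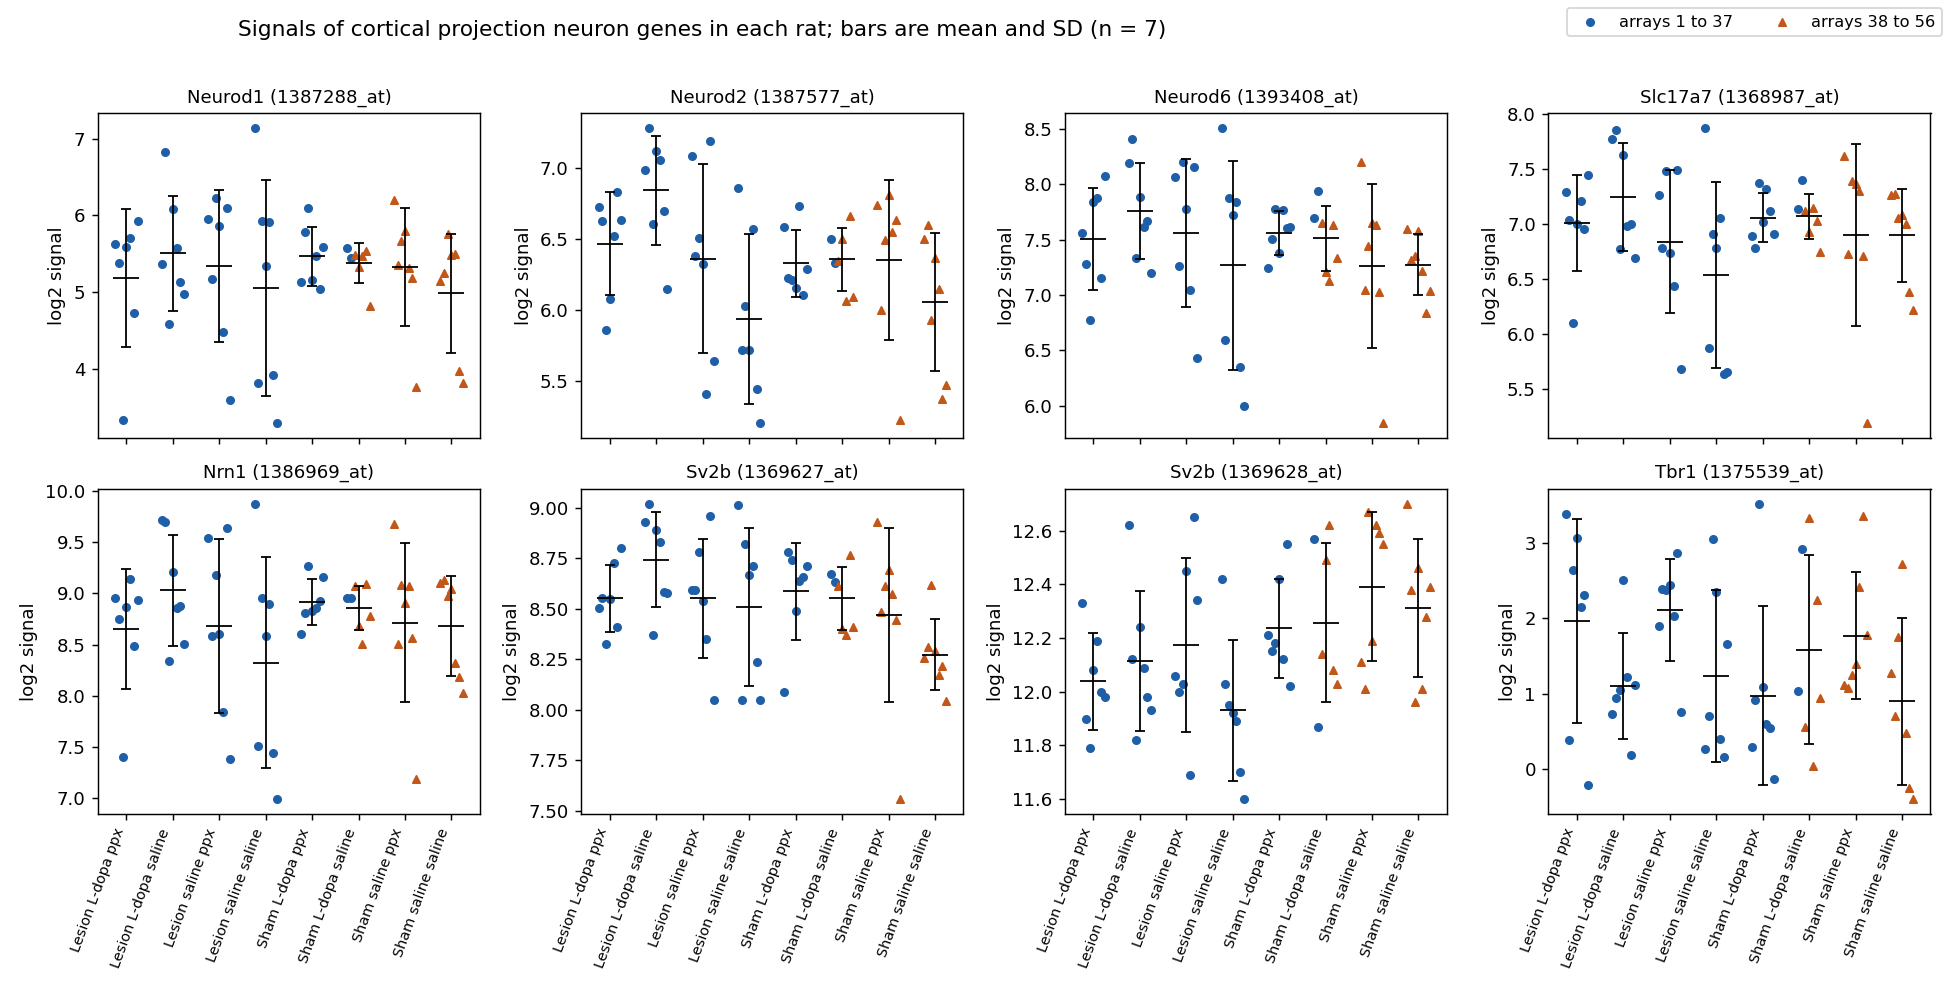
Log2 signal (vertical axis) of 8 probe sets of the 7 genes in each of the 8 groups (horizontal axis), 1 point per rat, with the group mean and SD (n = 7); circles are arrays 1 to 37 and triangles arrays 38 to 56. The rats of 1 group lie far apart, from 5.63 to 7.87 for Slc17a7 in the lesion saline saline group, and all groups overlap.

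Group levels of Slc17a7, the glutamate transporter gene, are given as lowest, median and highest rat. They were 6.09, 7.04 and 7.45 in the lesion L-dopa ppx group, 6.69, 7.00 and 7.85 in lesion L-dopa saline, 5.68, 6.78 and 7.49 in lesion saline ppx, and 5.63, 6.78 and 7.87 in lesion saline saline. In the sham rats they were 6.78, 7.02 and 7.37 with L-dopa ppx, 6.74, 7.11 and 7.40 with L-dopa saline, 5.18, 7.30 and 7.62 with saline ppx, and 6.22, 7.06 and 7.27 with saline saline. The medians span 6.78 to 7.30, and the groups differ more in how low their lowest rats reach. Every pair of groups overlapped.

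Nrn1, the neuritin gene, had a mean of 8.65 ± 0.586 (SD, n = 7) in lesion L-dopa ppx, 9.03 ± 0.540 in lesion L-dopa saline, 8.68 ± 0.848 in lesion saline ppx and 8.32 ± 1.04 in lesion saline saline. In sham rats it was 8.92 ± 0.225 with L-dopa ppx, 8.86 ± 0.216 with L-dopa saline, 8.71 ± 0.778 with saline ppx and 8.68 ± 0.486 with saline saline. The lesion L-dopa saline group stood highest and the lesion saline saline group lowest, and the spread differed more between groups than the mean did.

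Neurod1 averaged 5.18 ± 0.898 in lesion L-dopa ppx, 5.51 ± 0.746 in lesion L-dopa saline, 5.34 ± 0.985 in lesion saline ppx and 5.05 ± 1.41 in lesion saline saline (SD, n = 7 each). In sham rats it was 5.47 ± 0.387 with L-dopa ppx, 5.38 ± 0.258 with L-dopa saline, 5.33 ± 0.770 with saline ppx and 4.99 ± 0.774 with saline saline. Neurod1 was the dimmest of the tested members and varied most within the lesion saline saline group. Neurod2 averaged 6.47 ± 0.361 in lesion L-dopa ppx, 6.84 ± 0.388 in lesion L-dopa saline, 6.36 ± 0.669 in lesion saline ppx and 5.93 ± 0.600 in lesion saline saline. In sham rats it was 6.33 ± 0.236 with L-dopa ppx, 6.36 ± 0.221 with L-dopa saline, 6.35 ± 0.564 with saline ppx and 6.05 ± 0.488 with saline saline. The range of its 8 means, 0.912, was the widest among the tested members.

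Neurod6 averaged 7.51 ± 0.461 in lesion L-dopa ppx, 7.76 ± 0.435 in lesion L-dopa saline, 7.56 ± 0.669 in lesion saline ppx and 7.27 ± 0.942 in lesion saline saline (SD, n = 7 each). In sham rats it was 7.56 ± 0.198 with L-dopa ppx, 7.51 ± 0.294 with L-dopa saline, 7.26 ± 0.742 with saline ppx and 7.27 ± 0.275 with saline saline. For each of the 3 Neurod genes the lesion L-dopa saline group had the highest mean.

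The Sv2b probe set 1369628_at had its highest group means in sham rats, 12.39 ± 0.277 in sham saline ppx and 12.31 ± 0.258 in sham saline saline, and its lowest, 11.93 ± 0.261, in lesion saline saline. These high and low groups lie in different array sets, so the lesion and the array set cannot be told apart here. The Sv2b probe set 1369627_at followed the other genes more closely, with 8.74 ± 0.234 in lesion L-dopa saline at the top and 8.27 ± 0.176 in sham saline saline at the bottom. When the 8 group means of a probe set were put in order, all 7 steps between neighbours were smaller than the larger SD of the pair, for each of the 10 probe sets. Ordering divides the range of the means into small steps, so this does not show that the groups were alike.

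For most members the SD within groups was smaller in rats given L-dopa. For Slc17a7 it was 0.494 in lesion L-dopa saline against 0.847 in lesion saline saline, 0.439 in lesion L-dopa ppx against 0.651 in lesion saline ppx, 0.203 in sham L-dopa saline against 0.424 in sham saline saline, and 0.224 in sham L-dopa ppx against 0.832 in sham saline ppx. The same held in 4 of 4 matched pairs for Neurod1, Neurod2, Nrn1 and the Sv2b probe set 1369627_at, and in 3 of 4 for Neurod6. The second Slc17a7 probe set, 1368986_at, showed it in 2 of 4, with 0.293 in sham L-dopa saline against 0.202 in sham saline saline. The sham saline ppx group holds rat 49 at 5.18 for Slc17a7, the next rat being at 6.71. The Sv2b probe set 1369628_at showed it in 2 of 4 and Tbr1 in 1 of 4. The difference in spread was not tested, the genes vary together and so are not separate evidence, and in the sham pairs L-dopa and array set coincide in whole or in part.

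The same rats were low or high for most genes. Rats 21, 28 and 49 were among the 8 lowest of 56 for all 6 tested probe sets set beside each other (Neurod1, Neurod2, Neurod6, Slc17a7, Nrn1 and Sv2b 1369627_at), and rats 23, 27, 55 and 56 for 5 of the 6. Rats 9, 20 and 22 were among the 8 highest for all 6, and rats 8, 11 and 43 for 5. Rat 22 had the lowest Drd1 signal of the 56, rat 8 the second lowest (rank 55) and rat 9 the next (rank 54), whereas the low rats 28 and 27 ranked 3 and 4 from the top for Drd1. The other low rats ranked from 6 (rat 55) to 13 (rat 56), with rat 49 at 12. Among the other high rats, rat 11 ranked 52, rat 43 ranked 43 and rat 20 ranked 41. Rat 44, first for Drd1, was among the 8 lowest for 0 of the 6 probe sets. The low rats belong to the lesion saline ppx, lesion saline saline, sham saline ppx and sham saline saline groups, none of which received L-dopa. Rat 3 of the lesion L-dopa ppx group was low for 4 of the 6. Of the high rats, rat 20 (lesion saline ppx), rat 22 (lesion saline saline) and rat 43 (sham saline ppx) received no L-dopa either. High rats 8, 9 and 11 belong to the lesion L-dopa saline group. Rats were listed by these values as a description, and no groups were formed from them. In the centred signals the largest gap between neighbouring rats was 0.098 to 0.202 of the whole range in the 7 genes. Whether the rats form separate clusters was not tested.

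Signals of 5 of the 7 genes rose and fell together from rat to rat. Correlations were computed over the 56 arrays on signals centred on group and array set, with permutations inside these cells and p-values adjusted over 42 relations, which are 21 member pairs and 21 relations with Drd1, Adora2a and Penk. Among Neurod1, Neurod2, Neurod6, Slc17a7 and Nrn1 all 10 pairs were positive and passed, with Pearson r from 0.760 to 0.949 and Spearman rho from 0.641 to 0.924 (adjusted permutation p = 2.47e-05 for r in each). The permutation p of 1e-05 behind it is the smallest that 100000 permutations can give. Neurod6 and Nrn1 had the highest r (0.949, rho 0.924), followed by Slc17a7 and Nrn1 (0.941, rho 0.909) and Neurod6 and Slc17a7 (0.933, rho 0.890).

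Per log2 unit of Slc17a7, Nrn1 was higher by 1.09 ± 0.058 (SE), so the pair moved in nearly equal steps. Neurod2 was the least tightly bound of the 5, with r of 0.766 to Neurod1 and 0.760 to Neurod6. Without the 2 arrays farthest from the median of the first gene, r stayed between 0.722 and 0.935 in these 10 pairs. Inside arrays 1 to 37 alone r was 0.742 to 0.955, and inside arrays 38 to 56 alone 0.793 to 0.944, and all 10 pairs passed in each set.

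Within single groups of 7 rats, given as a description, Neurod6 and Nrn1 had a positive r in all 8 groups (0.758 to 0.991) and Slc17a7 and Nrn1 in all 8 (0.224 to 0.988). The lowest value for Slc17a7 and Nrn1 was in sham L-dopa saline, where Slc17a7 varied least. Neurod1 and Neurod2 were positive in 7 of 8 groups and had an r of -0.09 in sham L-dopa ppx.

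The probe sets of Sv2b disagreed. On 1369627_at Sv2b followed the other genes, with r of 0.883 to Neurod6, 0.874 to Nrn1, 0.856 to Slc17a7, 0.838 to Neurod1 and 0.667 to Neurod2 (adjusted permutation p = 6e-05 each, adjusted over the 30 relations of the second probe sets, rho 0.589 to 0.865). On 1369628_at, the brighter one, r with these 5 genes was 0.212 to 0.323 (rho 0.131 to 0.292), and none passed (adjusted permutation p = 0.051 to 0.194). Inside arrays 1 to 37 alone all 5 did (r 0.399 to 0.511), while inside arrays 38 to 56 alone none did and 4 of the 5 had a negative r (-0.257 with Neurod1 to 0.0377 with Neurod2). Over both sets the pair with Neurod2 also passed without rat 2, without its 2 farthest arrays and with 16 added to the unlogged signal (r 0.322 to 0.329). The r between the 2 Sv2b probe sets was 0.111 (rho 0.097, adjusted permutation p = 0.481). The files do not tell which transcripts each reads. The 2 probe sets of Slc17a7 did follow each other (r = 0.733, rho 0.679, adjusted permutation p = 6.67e-05), although the dimmer one lay below the filter. For Tbr1 none of its 6 pairs passed (r 0.078 to 0.164, rho 0.0757 to 0.189), with a mean signal of 1.45, the lowest of the members.

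**Figure D2:**
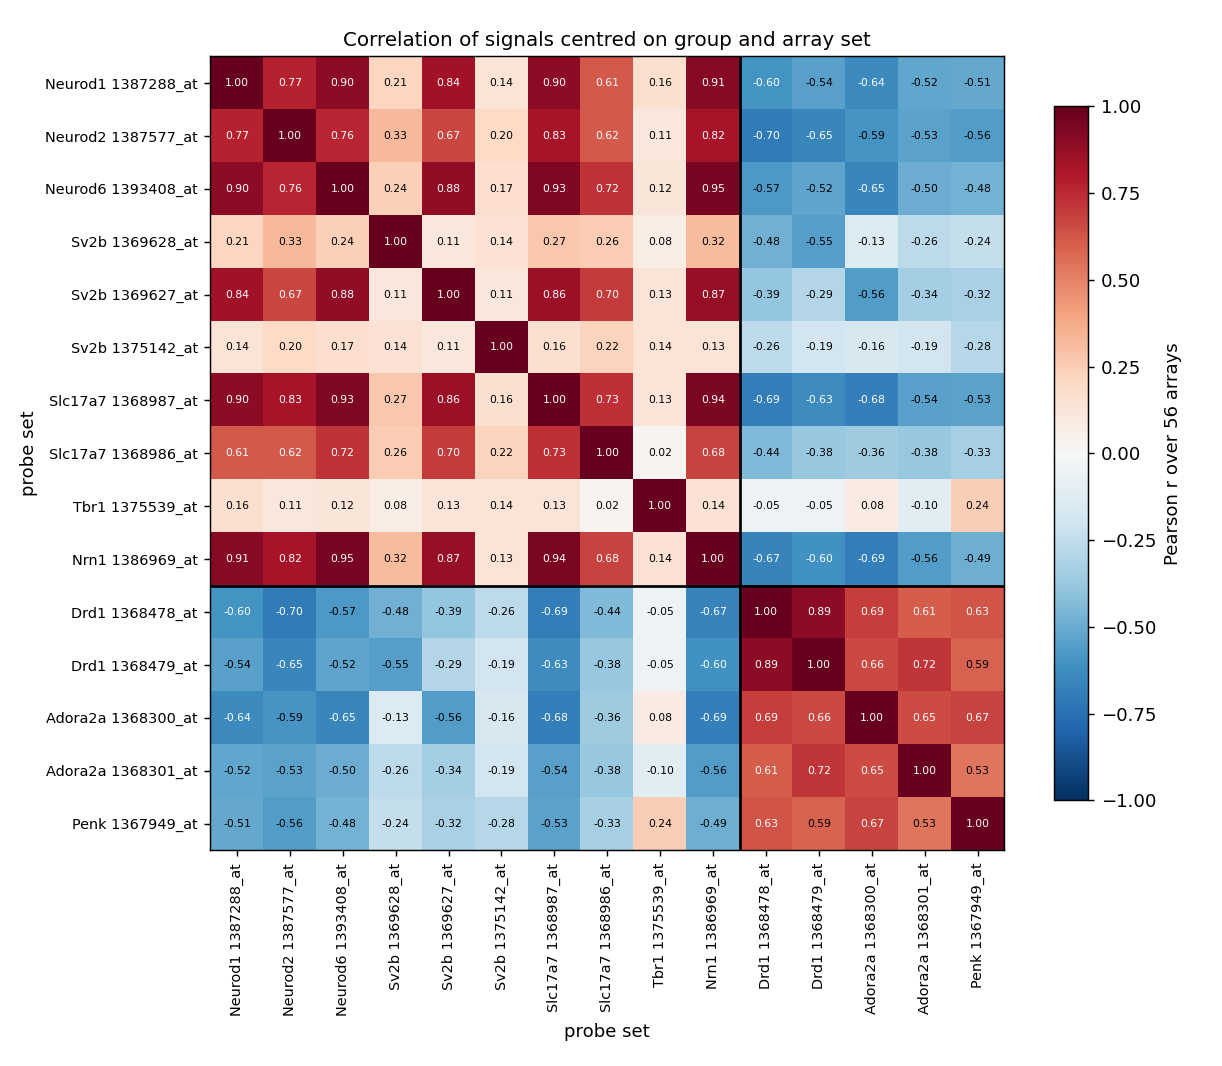
Pearson r over 56 arrays between the 10 probe sets of the cortical genes and the 5 of Drd1, Adora2a and Penk (both axes), after centring on group and array set; black lines divide the cortical from the spiny neuron genes. Neurod1, Neurod2, Neurod6, Slc17a7, Nrn1 and Sv2b 1369627_at form a positive block, the spiny neuron genes a second one, and the field between the blocks is negative.

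Spiny neuron genes moved the opposite way. All 15 relations of Neurod1, Neurod2, Neurod6, Slc17a7 and Nrn1 with Drd1, Adora2a and Penk were negative and passed, with r from -0.701 to -0.474 and rho from -0.728 to -0.448 (adjusted permutation p from 2.47e-05 to 0.00315 for r). Neurod2 and Drd1 had the strongest (r = -0.701, rho = -0.716), then Slc17a7 and Drd1 (r = -0.691, rho = -0.728) and Nrn1 and Adora2a (r = -0.686, rho = -0.680). Penk, the enkephalin precursor gene of indirect-pathway neurons, gave the weaker values, from -0.557 with Neurod2 to -0.474 with Neurod6. Sv2b 1369628_at passed with Drd1 (r = -0.482, rho = -0.415, adjusted permutation p = 7.85e-04), not with Adora2a or Penk, and Tbr1 with none, which makes 16 of 21.

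The opposite movement was small in the spiny neuron genes. Per log2 unit of Slc17a7, Drd1 was lower, with a slope of -0.26 ± 0.040 (SE), Adora2a of -0.28 ± 0.044 and Penk of -0.12 ± 0.029. Without the 2 arrays farthest from the median of the cortical gene (rats 22 and 49 for Slc17a7 and Nrn1), r in the 15 relations was -0.710 to -0.425 and all 15 passed.

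Array sets differed in what passed. Inside arrays 1 to 37 r was -0.764 to -0.472 and all 15 passed, whereas inside arrays 38 to 56, with 19 rats, r was -0.602 to -0.404 in the 15 and 0 passed after adjustment (adjusted permutation p = 0.0664 to 0.280). The difference between the sets was not tested. In single groups of 7, Slc17a7 and Adora2a were negative in 8 of 8 (-0.893 to -0.231), Slc17a7 and Drd1 in 7 of 8 (-0.932 to 0.205) and Slc17a7 and Penk in 7 of 8 (-0.882 to 0.450), the exception in both cases being sham L-dopa ppx. All signals of a rat come from 1 array scaled to a common level, so the genes of a relation share that scaling.

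**Figure D3:**
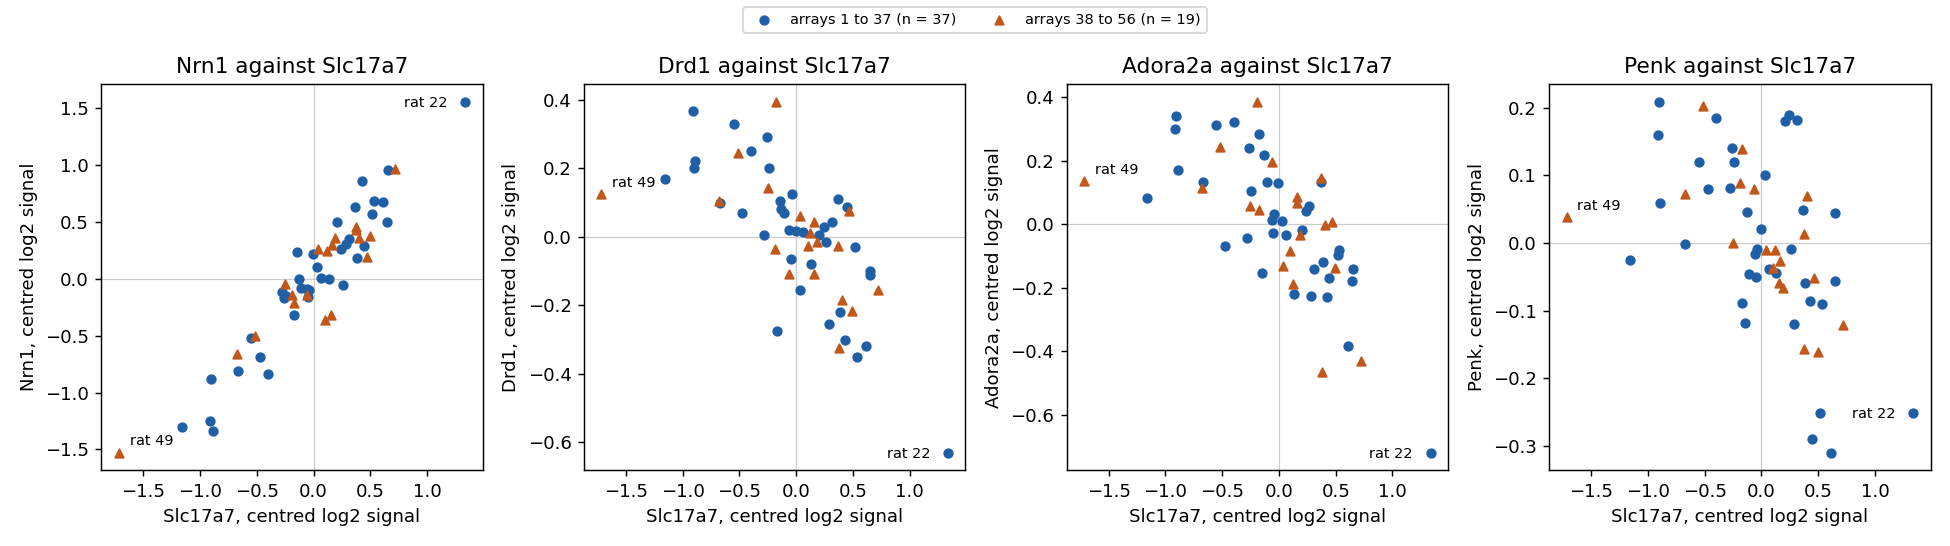
Centred log2 signals of Nrn1, Drd1, Adora2a and Penk (vertical axes) against Slc17a7 (horizontal axis), 1 point per rat, with circles for arrays 1 to 37 and triangles for arrays 38 to 56. Nrn1 follows Slc17a7 (r = 0.941) while Drd1 (-0.691), Adora2a (-0.682) and Penk (-0.532) run against it, and rats 22 and 49 mark the ends.

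The genes most like the cortical genes were sought over all tested probe sets with 1 symbol, by the mean r to Neurod1, Neurod2, Neurod6, Slc17a7, Nrn1 and Sv2b 1369628_at over the 56 arrays, as a description with no p. The highest were Vxn (0.821), the growth-cone protein gene Basp1 (0.816), C1ql3, which encodes a secreted synaptic protein (0.816), the GABA-B receptor subunit gene Gabbr2 (0.814) and Olfm1 (0.814). The postsynaptic scaffold gene Dlgap1 (0.813), the transcription factor gene Mef2c (0.813), the pentraxin genes Nptxr (0.812) and Nptx1 (0.809) and the Nogo receptor gene Rtn4r (0.809) followed. Over all 18625 probe sets the median was -0.03, and 4.09% lay above 0.5.

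At the other end stood the transcription factor genes Pbx3 (-0.713) and Foxp1 (-0.696), Zswim6 (-0.688), the dopamine D2 receptor gene Drd2 (-0.686) and Klhl13 (-0.683). Ppp1r1b, which encodes DARPP-32 (-0.673), Pard3 (-0.672), Dock10 (-0.665), the calcium release channel gene Ryr3 (-0.662) and Gnal (-0.659), which encodes the G protein alpha subunit behind striatal dopamine receptors, completed the 10 lowest. Of all tested probe sets 1.62% lay below -0.5.

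For single members the closest genes were Olfm1 (r = 0.936), Mef2c (0.934) and Vip (0.934) for Neurod1, and Fam81a (0.880), Rtn4r (0.865) and Nptxr (0.861) for Neurod2. Neurod6 was closest to Cck (0.959), Vxn (0.958) and Tmem178a (0.949), Slc17a7 to Vxn (0.961), Nptx1 (0.950) and Cck (0.949), and Nrn1 to Vxn (0.970), Olfm1 (0.967) and Mef2c (0.966). Sv2b 1369628_at had lower values and other neighbours, Bscl2 (0.629), Rex1bd (0.57) and Ap1ar (0.563), whereas Sv2b 1369627_at was closest to Cck (0.898) and Dclk1 (0.883). These are the extremes of a search over 13612 probe sets and are given for that reason.

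Marker lists of other cell types were set beside them by the same mean r. Of 13 tested genes of other cortical glutamatergic neurons, 8 lay above 0.5 (median 0.590), among them Nptx1 (0.809), Rtn4r (0.809), the cholecystokinin gene Cck (0.799), Bhlhe22 (0.792) and the zinc transporter gene Slc30a3 (0.789), while Lmo3 was at -0.24. Of 10 upper-layer genes 4 did (median 0.317), with Mef2c (0.813) and Cux2 (0.742) high and Pou3f1 at -0.551. Of 11 deep-layer genes 3 did (median 0.290), with Fezf2 at 0.788 and Rprm at 0.778. Positive values were found for 12 of the 13 other cortical genes, 6 of the 10 upper-layer genes and 8 of the 11 deep-layer genes. Tle4 (-0.461) was the lowest of the deep-layer list.

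All 15 tested genes of the list for spiny neurons at large lay below -0.5 (median -0.586, from -0.673 for Ppp1r1b to -0.520), with the phosphodiesterase gene Pde1b at -0.647. Of the direct-pathway list 4 of 7 did (median -0.528), with Ebf1 at -0.633 and Drd1 at -0.619, while Eya1 was at 0.320. Of the indirect-pathway list 3 of 4 did (median -0.575), with Drd2 at -0.686 and Gpr6 at -0.586. The inverse pattern thus covered many spiny neuron genes beyond Drd1, Adora2a and Penk.

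**Figure D4:**
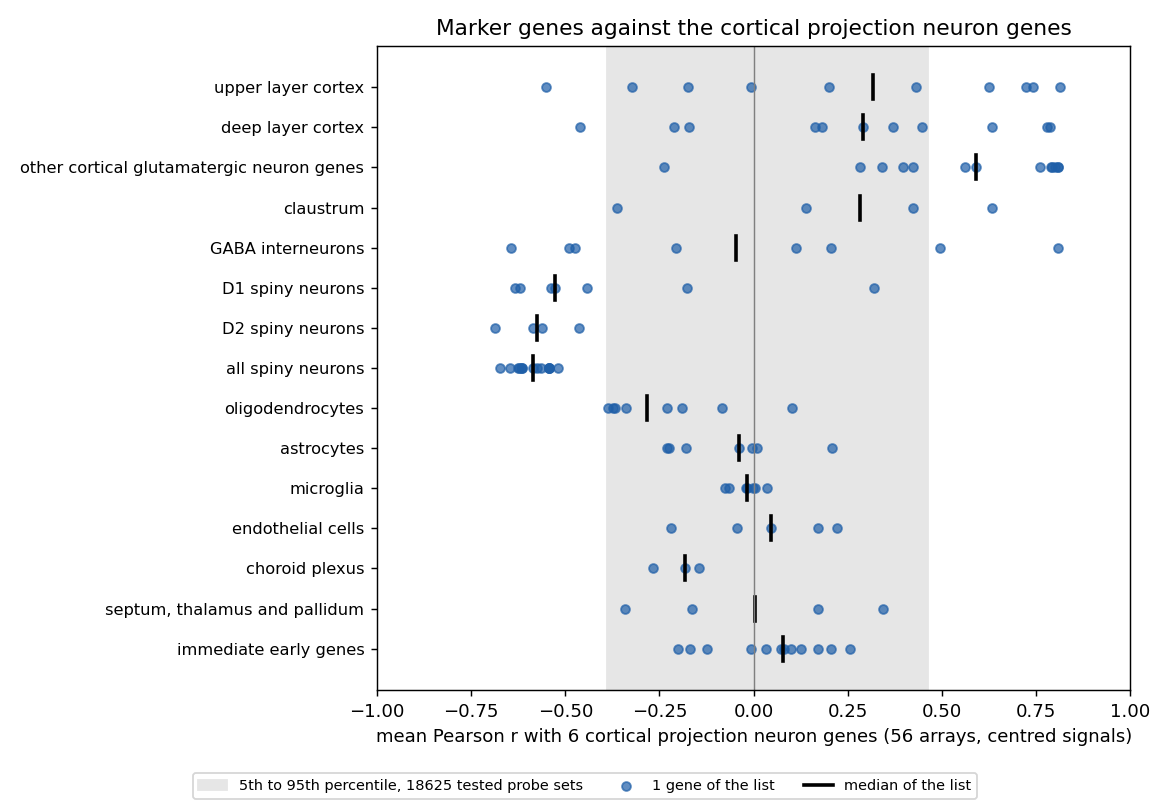
Mean Pearson r (horizontal axis) of each tested marker gene with 6 cortical genes, by list (vertical axis); each point is 1 gene, the black bar the list median and the grey band the 5th to 95th percentile of all tested probe sets (-0.39 to 0.462). Cortical glutamatergic genes reach 0.809 to the right, most spiny neuron genes lie to the left and glial lists lie inside the band. Eya1 of the direct-pathway list lies to the right of 0, at 0.320.

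L-dopa and pramipexole were then compared with saline inside 1 array set, with limma fitted to all 18625 tested probe sets and p-values adjusted over them. None of the 7 tested probe sets of the cortical genes was called in any of 11 comparisons. The background was as low: 0.0161% of all probe sets were called for L-dopa in lesioned saline-conditioned rats and 0.0161% for pramipexole in lesioned rats given L-dopa, 0.00537% for L-dopa in lesioned rats as a whole, and 0% in the other 8 comparisons. Unadjusted p-values under 0.05 numbered 939 to 2375 per comparison. A member's missing call is therefore no result about the member, and the intervals are wide.

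Among the 8 comparisons of a drug with saline, the differences of Neurod1, Neurod2, Neurod6, Slc17a7 and Nrn1 were largest for L-dopa in lesioned saline-conditioned rats. Neurod2 had 6.15, 6.99 and 7.29 (lowest, median, highest) in lesion L-dopa saline and 5.20, 5.71 and 6.86 in lesion saline saline, and the groups overlapped although 7 of 7 L-dopa rats lay above the saline mean. The means were 6.84 and 5.93, a difference of 0.91 ± 0.24 (SE, 95% interval 0.42 to 1.40). By limma the unadjusted p was 4.92e-04 and the adjusted p 0.137.

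Slc17a7 differed by 0.71 ± 0.29 (adjusted p = 0.287 by limma) and Nrn1 by 0.71 ± 0.34 (adjusted p = 0.367), each with 7 of 7 L-dopa rats above the saline mean. Neurod6 differed by 0.49 ± 0.29, Neurod1 by 0.45 ± 0.44 and Sv2b by 0.18 ± 0.14 on 1369628_at and 0.24 ± 0.15 on 1369627_at. The median difference of the 6 genes was 0.597, with 3 at an unadjusted p under 0.05, against a median of 0.00749 over all tested probe sets, of which 12.8% had such a p. Since the genes follow each other from rat to rat, these are not 6 separate observations.

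Rat 22 of the lesion saline saline group, the highest of the 56 for Neurod1, Neurod6, Slc17a7 and Nrn1, weighs on this comparison. Without it the Neurod2 difference was 1.07 with an adjusted p of 0.044 by limma, which passes, and 55 probe sets were called over the array, against 3 with it. The adjusted p of Slc17a7 without it was 0.106 and that of Nrn1 0.133. Leaving out 1 rat moved Neurod1 between 0.162 (without rat 28) and 0.802 (without rat 22), and Neurod6 between 0.277 and 0.694 (the same rats). Measures of RNA quality and of the spiny neuron genes moved with the comparison. The 3′ minus 5′ signal of the beta-actin and GAPDH control probes, a gauge of RNA integrity and labelling, was 1.11 ± 0.087 in lesion L-dopa saline against 0.870 ± 0.10 in lesion saline saline (SD, n = 7 each). With that signal as a covariate the Neurod2 difference was 0.54 (adjusted p = 0.838 by limma), and with the mean of Drd1, Adora2a and Penk as a covariate it was 0.57 (adjusted p = 0.366). With that second covariate Slc17a7 was at 0.281, Nrn1 at 0.231, Neurod6 at 0.114 and Neurod1 at -0.13. With the 3′ minus 5′ covariate Slc17a7 was at 0.476 and Nrn1 at 0.491. The part of either in the result was not tested. Across the 56 arrays, after centring, the 3′ minus 5′ signal had an r of 0.345 with Neurod2 (rho 0.315, adjusted permutation p = 0.0303), 0.355 with Sv2b 1369628_at and -0.468 with Drd1, and of 0.0303 to 0.180 with Neurod1, Neurod6, Slc17a7 and Nrn1, which did not pass.

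Spiny neuron genes stood on the other side of the same comparison without a call. Drd1 differed by -0.18 ± 0.11 and Adora2a by -0.24 ± 0.12, and the second Adora2a probe set, 1368301_at, by -0.49 ± 0.16 (adjusted p = 0.198 by limma, 7 of 7 L-dopa rats below the saline mean). Of 15 genes of spiny neurons at large 1 was positive (median -0.09) and 0 were called, with 2 at an unadjusted p under 0.05. Of 13 other cortical glutamatergic genes 9 were positive (median 0.199) and 0 were called, with 3 at such a p. The cortical layer lists did not share this rise. Of 10 upper-layer genes 7 were positive (median 0.0479) and 0 were called, with 2 at such a p. Of 11 deep-layer genes 5 were positive (median -0.000871) and 0 were called, with 5 at such a p. Over all tested probe sets 52.6% were positive and 12.8% had such a p.

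L-dopa in lesioned pramipexole-conditioned rats gave small differences with wide intervals. Neurod2 differed by 0.11 ± 0.24, Slc17a7 by 0.17 ± 0.29, Nrn1 by -0.03 ± 0.34, Neurod6 by -0.05 ± 0.29 and Neurod1 by -0.16 ± 0.44 (adjusted p = 0.997 or 0.998 in each by limma). Their 95% intervals reach from -1.05 to 0.757, so a difference as large as that of Slc17a7 in saline-conditioned rats is not excluded for Slc17a7. The signs of these 5 genes turned when 1 rat was left out, with Slc17a7 at -0.03 without rat 21, Neurod2 at -0.05 without rat 19, and Nrn1, Neurod6 and Neurod1 at 0.176, 0.0690 and 0.148 without rat 3. Over both conditionings, with 14 rats a side, Neurod2 averaged 6.66 with L-dopa and 6.15 with saline, a difference of 0.51 ± 0.17 (adjusted p = 0.286 by limma, 12 of 14 above). Slc17a7 differed by 0.44 ± 0.21 (adjusted p = 0.465, 13 of 14 above). With the 3′ minus 5′ covariate Neurod2 was at 0.248, and with the covariate of Drd1, Adora2a and Penk Slc17a7 was at 0.192.

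In sham saline-conditioned rats, 5 rats given L-dopa on arrays 38 to 42 were compared with the 7 of the sham saline saline group. Neurod2 had 6.06, 6.34 and 6.66 (lowest, median, highest) with L-dopa and 5.37, 6.15 and 6.60 with saline, a difference of 0.28 ± 0.27 (adjusted p = 0.923 by limma). Slc17a7 differed by 0.10 ± 0.32, Nrn1 by 0.14 ± 0.37, Neurod6 by 0.11 ± 0.32 and Neurod1 by 0.34 ± 0.48. Without rat 56 these were -0.02 for Slc17a7, 0.0323 for Nrn1 and 0.145 for Neurod1, and without rat 55 Neurod2 was at 0.165 and Neurod6 at 0.0411. The L-dopa difference in lesioned minus that in sham rats was 0.63 ± 0.36 for Neurod2 and 0.61 ± 0.44 for Slc17a7, with 95% intervals of -0.10 to 1.36 and -0.27 to 1.48 (adjusted p = 0.858 and 0.883), so the 2 models were not shown to differ. The lesioned part of this contrast comes from arrays 1 to 37 and the sham part from arrays 38 to 56, so model and array set cannot be told apart in it. Neurod2 was at 0.291 with the 3′ minus 5′ covariate and Slc17a7 at 0.299 with that of Drd1, Adora2a and Penk.

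**Figure D5:**
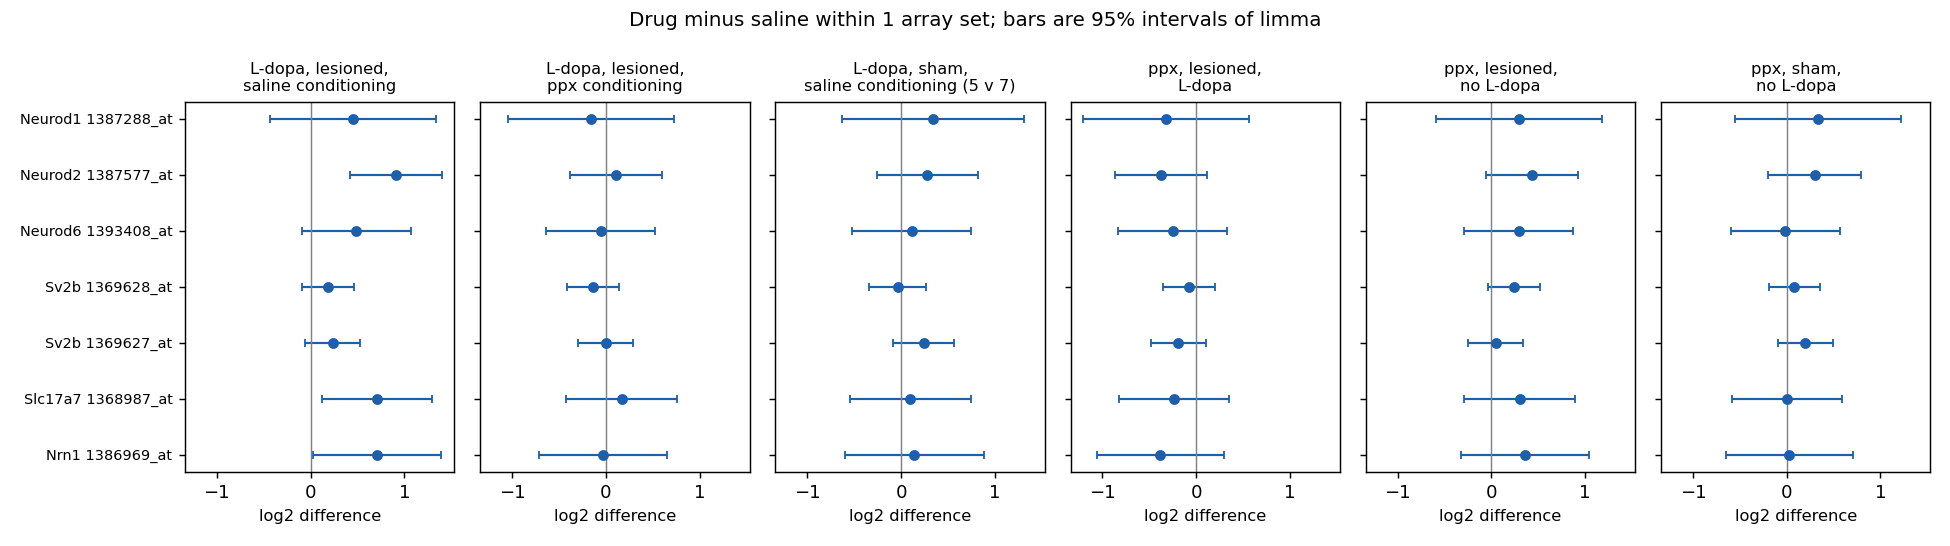
Log2 difference, drug minus saline (horizontal axes), of the 7 tested probe sets of the cortical genes (vertical axis) in 6 comparisons made inside 1 array set; points are limma estimates and bars 95% intervals. Neurod2 in lesioned saline-conditioned rats given L-dopa stands farthest from 0 (0.91), and most other intervals cover 0.

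Pramipexole conditioning was compared with saline conditioning next. In lesioned rats given L-dopa the difference was -0.38 ± 0.24 for Neurod2 (0 of 7 pramipexole rats above the saline-conditioned mean), -0.38 ± 0.34 for Nrn1, -0.24 ± 0.29 for Slc17a7, -0.25 ± 0.29 for Neurod6 and -0.32 ± 0.44 for Neurod1. The 6 genes had a median of -0.29, and none reached an unadjusted p under 0.05. Without rat 3, the low rat of the lesion L-dopa ppx group, Nrn1 was at -0.17, Slc17a7 at -0.09, Neurod6 at -0.13 and Neurod1 at -0.02. With the covariate of Drd1, Adora2a and Penk, Neurod2 was at -0.15, Nrn1 at -0.06, Slc17a7 at 0.0511, Neurod6 at 0.00491 and Neurod1 at 0.0742.

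No gene of the marker lists named next was called in the same comparison. Over all tested probe sets 51% were positive in it and 5.82% had an unadjusted p under 0.05 by limma. Of 13 other cortical glutamatergic genes 0 were positive (median -0.15), of 10 upper-layer genes 4 (median -0.0656) and of 11 deep-layer genes 2 (median -0.058). Of 15 genes of spiny neurons at large 14 were positive (median 0.104), of 8 interneuron genes 7 (median 0.11) and of 3 choroid plexus genes 3 (median 0.321). Of 7 microglial genes 7 were positive (median 0.415, with 4 at an unadjusted p under 0.05). The part of these in the members' differences was not tested. The 3 probe sets called in this comparison read globin genes (Hbb among them), which mark blood, and no cortical gene.

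In lesioned rats without L-dopa the signs were turned. Neurod2 differed by 0.43 ± 0.24, Nrn1 by 0.36 ± 0.34, Slc17a7 by 0.30 ± 0.29, Neurod6 by 0.29 ± 0.29 and Neurod1 by 0.29 ± 0.44, with adjusted p of 0.725 to 0.908 by limma. Without rat 22 the values were 0.619 for Nrn1, 0.523 for Slc17a7, 0.498 for Neurod6 and 0.640 for Neurod1. Without rat 28 Nrn1 was at 0.137, Neurod6 at 0.0813 and Neurod1 at -0.0013, and without rat 27 Slc17a7 was at 0.150. The lesion saline saline group is the saline side both here and in the L-dopa comparison above, so the 2 are not independent. The interaction of L-dopa and pramipexole in lesioned rats was -0.81 ± 0.35 for Neurod2 (unadjusted p = 0.0241, adjusted p = 0.708 by limma) and -0.74 ± 0.48 for Nrn1 (adjusted p = 0.769). With the covariate of Drd1, Adora2a and Penk these were -0.52 and -0.34. Over all 28 lesioned rats pramipexole differed from saline by 0.03 ± 0.17 for Neurod2, 0.03 ± 0.21 for Slc17a7 and -0.01 ± 0.24 for Nrn1.

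In sham rats without L-dopa, on arrays 38 to 56, pramipexole differed from saline by 0.30 ± 0.24 for Neurod2, 0.34 ± 0.44 for Neurod1, 0.01 ± 0.29 for Slc17a7 and 0.03 ± 0.34 for Nrn1. Rat 49, the lowest of the 56 for Slc17a7, is 1 of these 7 pramipexole rats, and without it the Slc17a7 difference was 0.29 (adjusted p = 0.844 by limma), that of Nrn1 0.284, that of Neurod2 0.486 and that of Neurod1 0.598. Without rat 55 Neurod2 was at 0.183, and without rat 56 Neurod1 was at 0.144.

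Inside 1 array set the lesion was compared only in rats given both drugs. Sham L-dopa saline rats 36 and 37 also lie in arrays 1 to 37 but were not compared with lesion L-dopa saline. Slc17a7 averaged 7.01 ± 0.439 in lesion L-dopa ppx and 7.06 ± 0.224 in sham L-dopa ppx (SD, n = 7 each), a difference of -0.05 ± 0.29 (95% interval -0.64 to 0.538). Nrn1 differed by -0.27 ± 0.34, Neurod1 by -0.28 ± 0.44, Neurod6 by -0.05 ± 0.29, Neurod2 by 0.14 ± 0.24 and Sv2b 1369628_at by -0.20 ± 0.14, with adjusted p from 0.826 to 0.990 by limma. The groups overlapped for each gene. Without rat 3 Nrn1 was at -0.06, Neurod1 at 0.0226, Neurod6 at 0.0731 and Slc17a7 at 0.100. Of 7 microglial genes 7 were positive in this comparison (median 0.492, 4 at an unadjusted p under 0.05, 0 called). Over all tested probe sets 50.5% were positive and 6.79% had such a p. The part of the microglial genes in the members' differences was not tested.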

How the data were processed

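RNA of the dorsal striatum (100 ng per rat) was hybridized to Affymetrix Rat230_2 arrays, per the labels' protocols. The deposited values are log2 signals made by the authors with MAS5, per the submitters' processing notes, which give no version. They were used as deposited. After unlogging, the mean without the outer 2% of values at each end was 150.042 to 150.046 on each of the arrays, so all had been scaled alike. Detection calls were not used here. Precision is set by how many arrays there are. Each sample is 1 rat per the labels.

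Of 31042 probe sets that are no controls, the 18625 above the 40th percentile of mean log2 signal were tested (13612 with 1 symbol, 311 with several, 4702 with none). The test was limma 3.58.1 (R 4.3.3), with 9 cells as the design, the 8 title groups with the sham L-dopa saline group divided at array 37, then eBayes. Two-sided p-values were Benjamini-Hochberg adjusted within a comparison, with a threshold of 0.05. Relations used Python 3.11.15 and scipy 1.17.1 with 100000 permutations within cells. The fit and the permutation test were tested on simulated data. Where a gene has several probe sets, that of highest mean stands for it unless another is named. In the searches for the genes most and least like the members, the probe set of most extreme r stands for a gene instead.

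The members, array boundary and marker lists were chosen with earlier results of these data known. Named genes are all members, Drd1, Adora2a, Penk, the 10 highest and 10 lowest by mean r, and the 3 closest to each member. From each list the 2 of largest absolute mean r were named. Cck, Bhlhe22, Slc30a3, Lmo3, Pou3f1, Tle4, Eya1, Pvalb, Chat, Sst, Npy and the globin genes were added after their values were seen. So were Gad1, Reln, Gnb4, Synpr, Slc1a3 and Fosb. Promoters come from RefSeq, where 6 of the 7 members matched.

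Alternatives were other cells or arrays in the fit, quantile normalization, other filters, 16 added to the unlogged signal, weights per array, a robust prior with a trend on intensity, covariates for the 3′ minus 5′ signal and for Drd1, Adora2a and Penk, rat 2 left out, and each rat left out in turn. 0 columns of the table were left unused.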

Additional observations from a re-analysis of the deposited data

Results flagged for a closer look

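In each of the 8 groups of 7 rats, the gap of the highest or lowest rat to its neighbour was compared with the range of the group, for 15 probe sets. The share exceeded the critical value of Dixon's test at the 95% level in 17 of 120 cases. Chance alone marks about 1 in 20 groups, and the probe sets vary together, so the cases are not separate.

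Rat 49 of sham saline ppx was the lone low rat for Neurod1 (3.77, the next rat at 5.18), Slc17a7 (5.18 on 1368987_at and 2.92 on 1368986_at) and Sv2b (7.56 on 1369627_at). Rat 3 of lesion L-dopa ppx was low for Slc17a7 (6.09) and Nrn1 (7.40) and high for Adora2a (8.27 on 1368301_at). Rat 22 of lesion saline saline was low for Drd1 (10.25 on 1368478_at and 8.54 on 1368479_at) and Adora2a (9.41 on 1368300_at and 7.13 on 1368301_at).

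Rat 29 of sham L-dopa ppx was low for Sv2b (8.09 on 1369627_at) and Drd1 (10.47 on 1368478_at). Rat 42 of sham L-dopa saline was low for Neurod1 (4.82), rat 44 of sham saline ppx for Sv2b (0.283 on 1375142_at) and rat 53 of sham saline saline for Adora2a (6.37 on 1368301_at). Rat 31 of sham L-dopa ppx was high for Tbr1 (3.51), a signal near the bottom of the scale.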

How the results depend on the processing

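For the 7 member probe sets in the 11 comparisons, 2414 alternative values were computed. Of these 1 became called, 4 stayed uncalled but turned sign by a shift larger than their SE, and the other 2409 did neither. The 1 that became called is Neurod2 for L-dopa in lesioned saline-conditioned rats without rat 22 (1.07, adjusted p = 0.044 by limma, where the alternatives that keep all its rats gave 0.0867 to 0.838). The sign alone differed in 153 of the values, mostly small ones. The 4 are Neurod1 for L-dopa in lesioned rats (-0.19) and in those conditioned with saline (-0.13) with the covariate of Drd1, Adora2a and Penk, and Sv2b 1369628_at in the same comparisons (-0.12 and -0.03) with the 3′ minus 5′ covariate. The cause was not tested.

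Counts of called probe sets over the whole array were small and moved easily. For L-dopa in lesioned rats (1 called) they were 4 with arrays of 1 set only, 3 with the compared groups only and 0 with the 3′ minus 5′ covariate, and 1 to 3 when a rat was left out. For L-dopa in lesioned saline-conditioned rats (3) they were 0 with the compared groups only, with no filter and with the striatal covariate, 1 with quantile normalization and with the 3′ minus 5′ covariate, 7 with the filter at the 60th percentile, and 0 to 55 when a rat was left out, the 55 without rat 22. For L-dopa in sham rats (0) the count was 1 with no array set in the cells and 1 with array weights. For pramipexole in lesioned rats given L-dopa (3) it was 6 with array weights, 0 under 8 others (arrays of 1 set only, compared groups only, quantile normalization, no filter, intensity trend, either covariate, rat 2 left out) and 0 to 6 when a rat was left out (6 without rat 1). For pramipexole in lesioned rats without L-dopa (0) it was 2 with arrays of 1 set only, 1 with 16 added, 2 with array weights, 4 with the striatal covariate, 1 without rat 2, and 0 to 2 when a rat was left out. For pramipexole in all lesioned rats (0) it was 0 to 6 (6 without rat 1), and for L-dopa in lesioned minus sham rats (0) 0 to 1 (1 without rat 52), when a rat was left out. Pramipexole in sham rats gave 1 with the striatal covariate, and the lesion in rats given both drugs gave 1 with arrays of 1 set only.

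Of the relations, 10 positive member pairs and 16 inverse relations passed. Under the alternatives 10 to 15 positive member pairs passed, the 15 in arrays 1 to 37 alone. Inverse relations numbered 17 without centring and 0 in arrays 38 to 56 alone, where 19 rats are left. Without centring 1 relation with a spiny neuron gene passed in the opposite direction, that of Tbr1 and Penk (r = 0.301). The median SD between rats of the 7 member probe sets, 0.559, was 0.486 to 0.564 under the alternatives. No paired analysis was possible because the sample numbers are not shared between groups. Signal over background could not be judged, since detection calls were not used, and this limits Tbr1 most.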

Other observations

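Interneuron genes were divided. By mean r to the 6 cortical genes over the 56 arrays, the neuropeptide gene Vip stood at 0.808, as high as the cortical glutamatergic genes, and Pvalb at 0.494. The choline transporter gene Slc5a7 stood at -0.645 and Chat at -0.474, both genes of cholinergic interneurons. Gad1 (-0.49) and Reln (-0.206) were negative too, while Sst (0.205) and Npy (0.112) were weakly positive. Of the 8 genes 1 lay above 0.5 and 1 below -0.5 (median -0.05). Of the claustrum list, Nr4a2, which is also in the deep-layer list, stood at 0.632 and Lxn at 0.423. Gnb4 stood at 0.14 and Synpr on the other side at -0.364 (median of 4 genes 0.281).

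Glial and vascular lists held no gene beyond 0.5 in either direction. The 7 microglial genes lay between -0.07 (Csf1r, with C1qb next) and 0.0362 (median -0.02). The 7 astrocyte genes had a median of -0.04, with Aqp4 at -0.23 and Gfap at -0.23. Of these astrocyte genes 2 were positive, the highest being Slc1a3 at 0.207. The 5 endothelial genes had a median of 0.0453, with Flt1 at 0.222 and Slc2a1 at -0.22. Oligodendrocyte genes had a median of -0.28, with Cldn11 at -0.39, Ermn at -0.37 and 1 of 8 positive.

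The 12 immediate early genes, which respond to neuronal activity, had a median of 0.0769. Of them 8 were positive, with Ier2 at 0.256 and Nr4a3 at 0.205 highest and Fosb at -0.201 lowest. The 3 choroid plexus genes had a median of -0.18, with Enpp2 at -0.27 and Ttr at -0.18. The 4 genes of septum, thalamus and pallidum had one of 0.00282, with Trpc4 at 0.344 and Tcf7l2 at -0.34.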
